A study of Mus musculus with 6 samples.

Results

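The 10 genes described here encode receptors for viral or misplaced nucleic acids and the proteins that act next to them: Ddx58, Ifih1, Dhx58, Mavs, Tlr3, Zbp1, Eif2ak2, Trim25, Adar and Samhd1. They were chosen by symbol, with earlier results of the same comparison known, and all 10 were found among the 32179 genes of the deposited table, each in 1 row. The comparison is between vascular smooth muscle cells of tamoxifen-treated iSM-G5C-KO mice, in which GPRC5C, an orphan G protein-coupled receptor, was depleted, and those of tamoxifen-treated control mice, with 3 libraries in each group. All mice were male, on C57BL6J and 8 to 24 weeks old, and carried the mTmG reporter, from which EGFP is made after Cre recombination. Controls are labelled wild type by genotype, but the source label calls the mice of every library Gprc5c-floxed. Cells came from skeletal muscle and were sorted as viable and EGFP-positive after depletion of CD31, CD45 and Ter119 cells. The sources used here give neither the promoter that drives Cre nor whether each library came from a separate animal, and p-values therefore speak only of the spread among the sequenced libraries, some of which may be technical.

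Cells carry several lines of defence against foreign RNA and DNA. RIG-I (gene Ddx58) and MDA5 (Ifih1) are helicases that bind double-stranded RNA in the cytosol, and LGP2 (Dhx58) is a related helicase without signalling domains that modulates them. RIG-I and MDA5 signal through MAVS on mitochondria to induce type I interferon, and TRIM25 is a ubiquitin ligase that promotes RIG-I signalling. TLR3 senses double-stranded RNA in endosomes and so is not cytosolic, ZBP1 binds nucleic acids in the Z form, and PKR (Eif2ak2) is a kinase that stops translation when it binds double-stranded RNA. ADAR edits adenosine to inosine in the cell's own double-stranded RNA and SAMHD1 degrades deoxynucleotides, both of which limit sensing of self. Many of these genes are themselves induced by interferon, through the interferon-stimulated response element (ISRE).

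Values are normalised read counts that the authors rounded to whole numbers. The libraries held an estimated 1480127 to 2935114 reads, and depth fell in the same order over library numbers 1, 2 and 3 in both groups. Control library 3 stands apart, with 29707 genes above 0 against 20481 to 21179 in the others. KO library 2 stands apart in 10 proliferation genes, whose summed value was 1052 there against 140 and 157 in the other KO libraries and 177 to 317 in the controls. The targeted gene Gprc5c was at 328, 305 and 360 in KO libraries and 428, 532 and 497 in controls, so that 68.2% of the control level was left (limma's adjusted p = 0.999). Smooth muscle markers were read at high levels in all libraries, with sums over 10 genes of 12275 to 14596 in KO libraries and 14285 to 14641 in controls. The log2 fold change in the fit was below 0 for each of the 10, with a median of -0.11. This need not mean a lower KO mean. Acta2, at 1067, 998 and 1260 in KO libraries and 995, 1118 and 1207 in controls, had a slightly higher one.

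The promoters of the sensors were searched for the ISRE core, spelled GAAANNGAAA, and the gamma-activated sequence, TTCNNNGAA, on both strands and with overlaps allowed. RefSeq (GRCm38.p6) gave 10 promoter windows for 8 of the sensors, each from 250 bases before to 50 bases after a transcription start. The ISRE core was found in the windows of 3 of these 8 sensors, Ddx58, Ifih1 and Eif2ak2, and in those of 3.99% of the 27025 genes with a window. The gamma-activated sequence was found for 3 of the 8, Eif2ak2, Adar and Samhd1, and for 9.55% of all genes. A match describes these letters only. The ISRE core matches are shown first, with flanking bases, and all of them lie just downstream of the RefSeq start. The capitals mark the match, which for Ddx58 is on the opposite strand. It begins at base 3 of the RefSeq transcript for Ddx58, at base 33 for Ifih1 and at base 19 for Eif2ak2. By the gene coordinates of Ifih1 given below, which end at 62646211, its match at 62646214 to 62646223 lies just before the start. All 3 stretches are on the minus strand of GRCm38.p6, at chr4:40239804-40239833, chr2:62646206-62646233 and chr17:78882535-78882564.
Ddx58 site: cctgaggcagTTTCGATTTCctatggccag
Ifih1 site: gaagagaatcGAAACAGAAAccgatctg
Eif2ak2 site: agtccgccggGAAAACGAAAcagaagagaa

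Longer stretches, from 250 bases before to 30 after the start, are shown for Ddx58, Eif2ak2 and Mavs. The values of Ddx58 separated the groups most clearly, Eif2ak2 holds both motifs, and Mavs alone had a lower mean in KO libraries. The windows of Mavs, Tlr3 and Trim25 held neither motif, and of these Tlr3 and Trim25 had higher means in KO libraries. The Ddx58 stretch is chr4:40239796-40240075 on the minus strand, that of Eif2ak2 chr17:78882543-78882822 on the minus strand and that of Mavs chr2:131233813-131234092 on the plus strand, and capitals again mark the ISRE core.
Ddx58 promoter: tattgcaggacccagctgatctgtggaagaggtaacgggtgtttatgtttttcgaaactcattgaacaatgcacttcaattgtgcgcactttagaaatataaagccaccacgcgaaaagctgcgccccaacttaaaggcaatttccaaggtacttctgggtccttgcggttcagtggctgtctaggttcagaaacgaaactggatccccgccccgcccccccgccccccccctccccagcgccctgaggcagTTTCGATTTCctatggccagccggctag
Eif2ak2 promoter: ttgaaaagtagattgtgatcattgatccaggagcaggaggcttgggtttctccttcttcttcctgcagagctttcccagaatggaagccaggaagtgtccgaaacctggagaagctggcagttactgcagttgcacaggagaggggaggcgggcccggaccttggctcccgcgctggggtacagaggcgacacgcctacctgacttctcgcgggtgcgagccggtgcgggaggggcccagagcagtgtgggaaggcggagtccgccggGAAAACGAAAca
Mavs promoter: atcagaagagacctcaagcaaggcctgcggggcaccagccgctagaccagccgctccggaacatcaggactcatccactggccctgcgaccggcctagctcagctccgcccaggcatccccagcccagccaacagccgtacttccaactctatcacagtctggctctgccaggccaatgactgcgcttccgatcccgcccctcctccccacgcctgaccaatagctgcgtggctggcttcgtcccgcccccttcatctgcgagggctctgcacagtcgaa

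All 3 RIG-I-like receptors had higher means in KO libraries. Ddx58 (ENSMUSG00000040296, chromosome 4, 40204849 to 40239828, minus strand, GRCm38), the gene of RIG-I, was at 159, 214 and 185 in KO libraries 1, 2 and 3 and at 129, 106 and 123 in control libraries 1, 2 and 3. Every KO library lay above every control library, and the means were 186 ± 27.5 in KO libraries and 119.3 ± 11.9 in controls (SD, n = 3 each). The log2 fold change, KO over control on the log2(value + 1) scale, was 0.63 (SE, the standard error, 0.15). Ifih1 (ENSMUSG00000026896, chromosome 2, 62595798 to 62646211, minus strand), the gene of MDA5, was at 156, 231 and 220 in KO libraries and at 113, 112 and 154 in controls. The groups did not overlap, but the lowest KO library and the highest control differed by few reads (156 and 154). Its means were 202.3 ± 40.5 in KO libraries and 126.3 ± 24.0 in controls (SD, n = 3 each), with a log2 fold change of 0.67 (SE 0.20). Dhx58 (ENSMUSG00000017830, chromosome 11, 100694884 to 100704271, minus strand), the gene of LGP2, was at 23, 51 and 49 in KO libraries and at 23, 19 and 23 in controls. KO library 1 was level with controls 1 and 3, while KO libraries 2 and 3 lay far above all controls, which gave a log2 fold change of 0.81 (SE 0.33.)

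**Figure D1:**
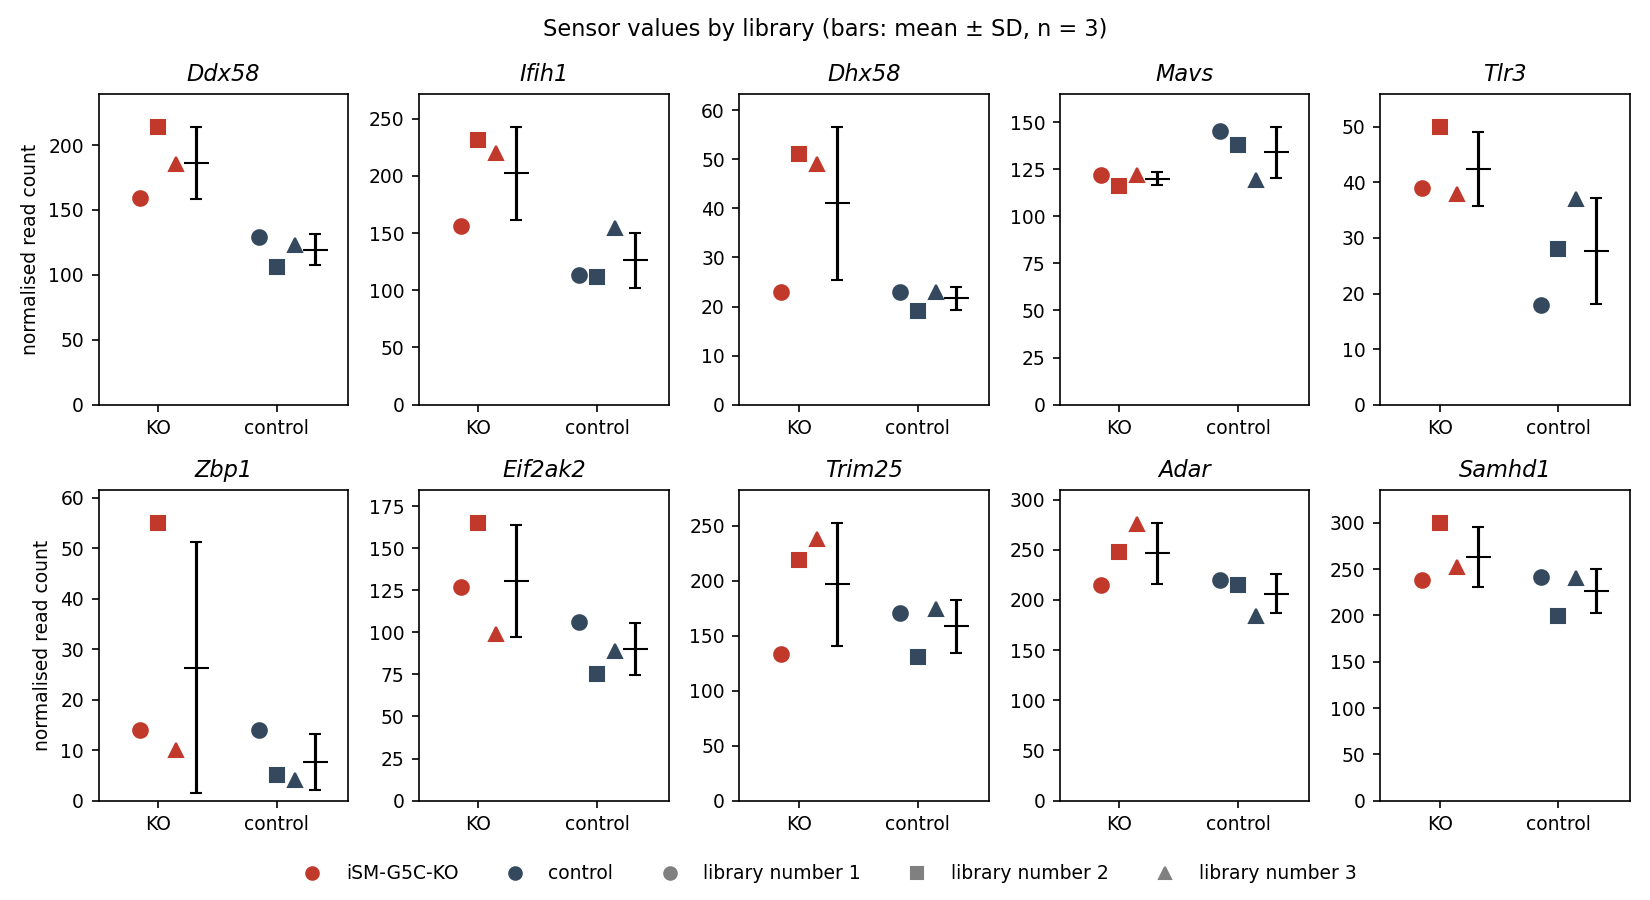
Normalised read count (y axis, from 0) of each sensor in the 3 iSM-G5C-KO libraries (left) and the 3 control libraries (right), with marker shapes for the library numbers and the mean ± SD beside the points. Ddx58 at 159 to 214 in KO libraries lies above the controls at 106 to 129, Mavs overlaps between groups, and Zbp1 is high in KO library 2 alone, at 55.

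The adaptor of RIG-I and MDA5, unlike its receptors, had a lower mean in KO libraries, and this contrast between genes was not tested. Mavs (ENSMUSG00000037523, chromosome 2, 131234067 to 131248025, plus strand) was at 122, 116 and 122 in KO libraries and at 145, 138 and 119 in controls. The control library numbered 3 lay within the KO range, so the groups overlapped. The means were 120 ± 3.46 in KO libraries and 134 ± 13.5 in controls (SD, n = 3 each), and the log2 fold change was -0.15, with a 95% interval from -0.46 to 0.15. Trim25 (ENSMUSG00000000275, chromosome 11, 88999376 to 89020293, plus strand), for the ubiquitin ligase, was at 133, 219 and 238 in KO libraries and at 171, 131 and 174 in controls. KO library 1 was lower than controls 1 and 3, and KO libraries 2 and 3 were higher than all controls. The log2 fold change was 0.28 (SE 0.24), and 0.53 without KO library 1, 0.14 without control library 2, 0.18 without KO library 2 and 0.12 without KO library 3.

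Tlr3 (ENSMUSG00000031639, chromosome 8, 45395665 to 45410619, minus strand), for the endosomal receptor, was at 39, 50 and 38 in KO libraries and at 18, 28 and 37 in controls. The groups did not overlap, although KO library 3 and control library 3 were nearly level. The means were 42.3 ± 6.66 in KO libraries and 27.7 ± 9.50 in controls (SD, n = 3 each), and the log2 fold change was 0.64 (SE 0.29). Without control library 1, the lowest, it was 0.37.

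Eif2ak2 (ENSMUSG00000024079, chromosome 17, 78852564 to 78882573, minus strand), the gene of PKR, was at 127, 165 and 99 in KO libraries and at 106, 75 and 89 in controls. KO library 3 lay below control library 1, so the groups overlapped. The means were 130.3 ± 33.1 in KO libraries and 90 ± 15.5 in controls (SD, n = 3 each), with a log2 fold change of 0.51 (SE 0.22), which was 0.33 without KO library 2. Zbp1 (ENSMUSG00000027514, chromosome 2, 173206612 to 173218923, minus strand), for the Z-form sensor that can start necroptosis, had the lowest mean of the set in both groups. It was at 14, 55 and 10 in KO libraries and 14, 5 and 4 in controls. Most of its difference came from KO library 2, and the libraries numbered 1 were both at 14. The log2 fold change was 1.45 (SE 0.71), and 0.75 without KO library 2. At a control mean of 7.67, Zbp1 reached the minimum mean of 10 over all libraries only through its KO values, which the other 9 sensors did not need.

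Adar and Samhd1, which limit sensing of self, had the smallest log2 fold changes among the 9 sensors with a higher mean in KO libraries. That of Trim25, at 0.28, was close. Without KO library 3 it was 0.12, below Adar at 0.17 and Samhd1 at 0.24. Adar (ENSMUSG00000027951, chromosome 3, 89715022 to 89753446, plus strand) was at 215, 248 and 276 in KO libraries and at 220, 215 and 184 in controls. KO library 1 lay within the control range and the other KO libraries above it, and the log2 fold change was 0.25 (SE 0.14). Leaving out control library 3 or KO library 3 gave 0.17 each. Its exons share 1365 bases with Chrnb2, annotated on the opposite strand, which averaged 5.67 over all libraries. Genes on the opposite strand also overlap exons of Dhx58 (Dhx58os, 141 bases, mean 4.17) and Tlr3 (Gm45542, 381 bases, mean 0.5). For Eif2ak2 they are Gm26637 (174 bases, mean 1.5) and n-R5s29 (47 bases, mean 1). The sources used here do not say whether counting used strand. Samhd1 (ENSMUSG00000027639, chromosome 2, 157097533 to 157135265, minus strand) was at 238, 300 and 252 in KO libraries and at 241, 199 and 240 in controls. KO library 1 again lay within the control range, and the log2 fold change was 0.21 (SE 0.14). Leaving out control library 2 or KO library 2 gave 0.12 each.

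Over the set, 9 of 10 sensors had a log2 fold change above 0, as 50.2% of the 12735 tested genes did, and 6 reached 0.5 or more, as 3.31% of all genes did. The median was 0.57, against 0.0011 over all tested genes. Groups did not overlap, with KO higher, in 3 sensors (Ddx58, Ifih1 and Tlr3) and in 2.69% of tested genes. These counts are descriptions, because the genes were chosen with results of this contrast known. Zbp1, which was tested only through its KO values, is counted in the 9, in the 6 and in the median. Of the 10 sensors, 0 passed an adjusted p of 0.05 in limma's test over all 12735 genes, where 0% of genes passed. Adjusted p from limma was 0.999 for each sensor. At an unadjusted p under 0.05 there were 4 sensors (Ddx58, Ifih1, Dhx58 and Eif2ak2), all with higher means, and 131 of all tested genes (1.03%) were so with KO higher. With the replicate number as a block in limma, 0 sensors and 0.00785% of genes passed the adjusted threshold, and 6 sensors and 4.29% of genes were at an unadjusted p under 0.05 with KO higher. Zbp1 is again among these 6 sensors. The smallest adjusted p from limma with the block was 0.165, for Ifih1.

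The size of the difference varied between the numbered pairs. Each number holds only 1 KO and 1 control library, and no label says what a number marks. A dependence on the number therefore cannot be told apart from the spread of single libraries. Between the libraries numbered 1 the median difference over the sensors was 0, with 4 of 10 higher in the KO library (43.9% of tested genes were). Between those numbered 2 it was 0.91, with 9 of 10 higher (48.5% of genes), and between those numbered 3 it was 0.48, with all 10 higher (51.2% of genes). Ddx58 and Ifih1 were higher in each of the 3 numbers, by 0.30, 1.01 and 0.58 and by 0.46, 1.04 and 0.51 on the log2 scale. Tlr3 and Eif2ak2 were also higher in each number, which gave 4 of 10 sensors and 14.0% of genes. KO library 2 held the highest value of all 6 libraries in 7 of 10 sensors (18.9% of genes), KO library 3 in Trim25 and Adar, and control library 1 in Mavs. KO library 1 lay above the highest control in 4 sensors (18.0% of genes). The median over the sensors was 0.42 without KO library 2. In fits with the block it was 0.36 without the pair numbered 2 and 0.62 without the pair numbered 1.

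**Figure D2:**
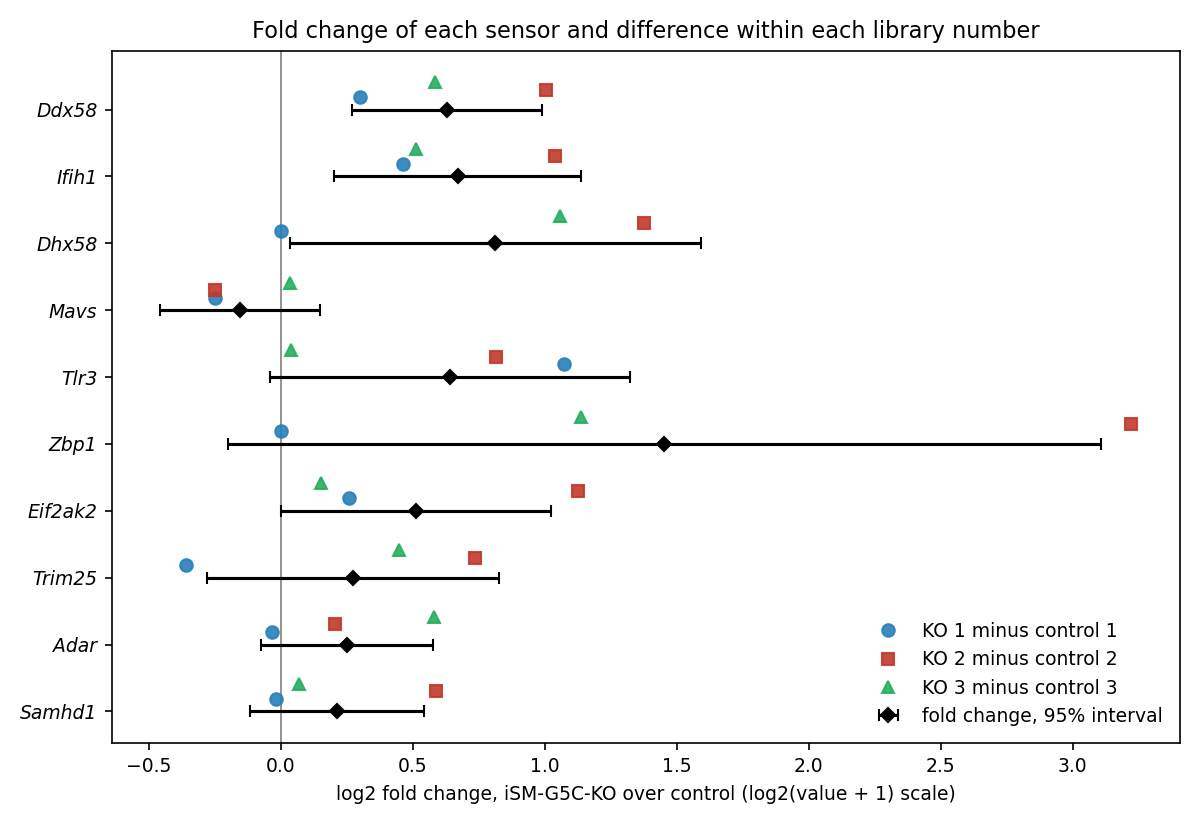
Log2 fold change of each sensor, iSM-G5C-KO over control (black diamonds, with limma's 95% interval), and the difference between the KO and the control library of each number (coloured markers). The differences of number 2 are the largest for 7 of 10 sensors, from 0.59 for Samhd1 to 3.22 for Zbp1, and those of number 1 lie at 0 for Dhx58 and Zbp1.

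Levels can be compared between genes only per length. In normalised reads per kb of annotated exon, control means ran from 40.1 for Mavs through 27.6 for Trim25, 25.4 for Adar, 24.8 for Samhd1, 17.6 for Eif2ak2, 16.9 for Ddx58 and 15.5 for Ifih1 to 6.62 for Dhx58, 5.31 for Tlr3 and 2.17 for Zbp1. The adaptor thus had the highest level per kb and the Z-form sensor the lowest. Among control libraries, Mavs at 35.6 to 43.3 did not overlap with Trim25 at 22.8 to 30.2. Trim25, Adar and Samhd1 overlapped with one another, as did Eif2ak2, Ddx58 and Ifih1, and as neighbours did Dhx58 and Tlr3, and Tlr3 and Zbp1. In KO libraries Trim25, at 38.1 and 41.4 reads per kb in libraries 2 and 3, was above Mavs, at 34.7 and 36.5, and these neighbours overlapped. By the means, the KO order was the same except that Ddx58 at 26.4 reads per kb stood before Eif2ak2 at 25.5, and the KO libraries of these neighbours overlapped. Ddx58, Ifih1 and Eif2ak2 averaged 24.8 to 26.4 reads per kb in KO libraries and 15.5 to 17.6 in controls.

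**Figure D3:**
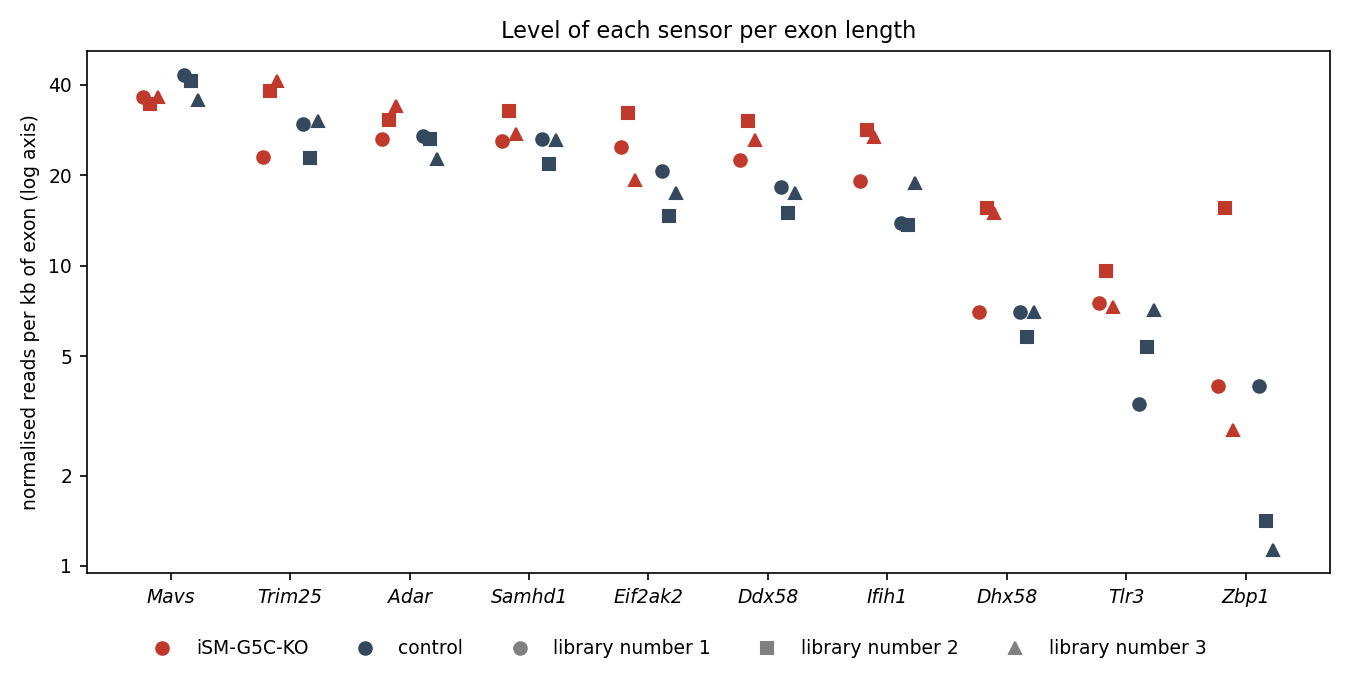
Normalised reads per kb of exon (log axis) for each sensor, ordered by the control mean, with the 3 iSM-G5C-KO libraries left of the 3 control libraries. Mavs has the highest control level at 40.1 and Zbp1 the lowest at 2.17.

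The genes around the sensors were described by lists, each without the 10 sensors. Among adaptors and kinases of RIG-I-like receptor signalling, 9 of 19 tested members had a log2 fold change above 0, and the median was -0.0046. Tbk1, the kinase that activates IRF3, was at 184, 163 and 182 in KO libraries and 163, 146 and 176 in controls. Ripk1, a kinase of inflammatory and cell death signalling, was at 410, 223 and 200 in KO libraries and 534, 315 and 302 in controls, lower in each number. Its log2 fold change was -0.49 (SE 0.32), and -0.23 without control library 1, -0.29 without KO library 3 and -0.81 without KO library 1. Nlrx1, a mitochondrial protein of the NOD-like receptor family, had a log2 fold change of -0.34, and Tradd, an adaptor of death receptors, 0.39. Adjusted p from limma was 0.999 for all 4.

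Cytosolic DNA sensing had a median log2 fold change of 0.11, with 9 of 11 tested members higher. Leaving out KO library 2 turned this median to -0.043, and sample quality weights gave 0.44. Ifi203, Mndal and Ifi204, of the interferon-inducible family with Pyrin and HIN domains, were at 227, 328 and 319, at 150, 228 and 281, and at 61, 163 and 119 in KO libraries. In controls they were at 199, 184 and 247, at 139, 140 and 202, and at 81, 90 and 93. Their log2 fold changes were 0.46, 0.43 and 0.27, and that of Enpp1, which degrades cyclic GMP-AMP, was 0.24, with a range of 0.053 to 0.52 when 1 library was left out, lowest without control library 1 and highest without control library 3. That of Ifi204 was -0.043 without KO library 2. Reads of these related interferon-inducible genes may be split between copies, so their values are uncertain. Mb21d1, the gene of the DNA sensor cGAS, was at 9, 16 and 10 in KO libraries and 14, 9 and 9 in controls (named after its values were seen). Endosomal Toll-like receptors and adaptors had a median of 0.083 over 8 tested members, led by Unc93b1, the chaperone of these receptors, with 0.45. Other members were Cd14 (-0.60, and 0.20 without control library 1), Cnpy3 (0.12) and Myd88 (-0.12). Tlr7, Tlr8, Tlr9, Tlr13 and Ticam2 had values of at most 11 and were left untested.

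OAS enzymes make the second messenger 2-5A on binding double-stranded RNA. Of their genes and related genes, 4 of 5 tested members had a log2 fold change above 0. The median was 0.80, the value of Oas1b, and 0.056 where a mean of at least 50 was required. Leaving out genes that are not reported here raised this median. Oasl2 was at 51, 146 and 109 in KO libraries and 51, 38 and 40 in controls, Oas2 at 17, 26 and 34 in KO libraries and 12, 9 and 16 in controls, and Oas1b at 17, 34 and 41 in KO libraries and 11, 15 and 25 in controls. Only Oas2 of these did not overlap between groups, as 2.69% of tested genes did not with KO higher. Its lowest KO library and highest control were nearly level (17 and 16). KO library 1 was level with control library 1 in Oasl2. Pde12, which encodes an enzyme that degrades 2-5A, was at 120, 83 and 77 in KO libraries and 150, 90 and 105 in controls, a log2 fold change of -0.29. Leaving out control library 1 gave -0.086, and leaving out KO library 1 gave -0.49. The OAS genes are a family of close copies, between which reads may be split, and the other 5 listed members had values of at most 15.

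Receptors and signal transducers of interferon had a median of 0.13, with 15 of 21 tested members higher. Irf7, which encodes a transcription factor that amplifies interferon production, was at 67, 146 and 137 in KO libraries and 50, 39 and 53 in controls. Stat2, which encodes a part of the factor that binds the ISRE, was at 212, 352 and 345 in KO libraries and 211, 177 and 233 in controls. Usp18, an inhibitor of interferon receptor signalling, was at 25, 78 and 70 in KO libraries and 19, 15 and 31 in controls. Irf7 did not overlap between groups, as 2.69% of tested genes did not with KO higher. In all 3 genes the libraries numbered 1 were the closest to each other. Socs3, a feedback inhibitor of cytokine signalling, was at 598, 472 and 437 in KO libraries and 686, 668 and 539 in controls, with a log2 fold change of -0.33. Genes of interferons themselves were not detectable at this depth, since 6 of 21 listed had a row in the table and their highest value was 1. All 6 were at 1 in control library 3, the library with 29707 genes above 0. Elsewhere only Ifna16 in KO library 3 and Ifna7 in KO library 1 were at 1.

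The remaining lists had medians near that of all genes. Necroptosis genes downstream of Zbp1 had 0.0029, with 4 of 7 higher and 3 of 7 lower. A log2 fold change of 0.5 or more was reached by 3 of the 7, as by 3.31% of all tested genes. Among them Casp8 was at 66, 108 and 63 in KO libraries and 45, 51 and 52 in controls, and Mlkl, the executor of necroptosis, at 31, 99 and 56 in KO libraries and 30, 38 and 52 in controls. The log2 fold changes of Casp8 and Mlkl were 0.63 and 0.50, and 0.38 and 0.094 without KO library 2. That of Cflar, an inhibitor of caspase 8, was -0.17. Kinases of eIF2alpha and the integrated stress response had -0.061, with 5 of 12 higher. Asns had 0.66, Eif2s1, which encodes eIF2alpha, 0.15, and the stress-induced Atf3 and Ppp1r15a had -0.31 each. Nucleases and editing enzymes that guard against self had 0.054, with 10 of 12 higher. Adarb1, the other catalytically active editing enzyme, was at 180, 131 and 90 in KO libraries and 202, 189 and 159 in controls, a log2 fold change of -0.50. Rnaseh2a, Dnase1l1 and Xrn1 had -0.16, 0.34 and 0.10. Other RNA helicases and double-stranded RNA-binding proteins had -0.0069, with 10 of 21 higher. Ddx60, an interferon-induced helicase, was at 64, 99 and 106 in KO libraries and 44, 42 and 77 in controls. Tarbp2, Ilf2 and Strbp had log2 fold changes of 0.22, 0.24 and -0.69. In all of these lists 0 members passed limma's adjusted threshold in either direction, with adjusted p of 0.999 for each gene named.

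**Figure D4:**
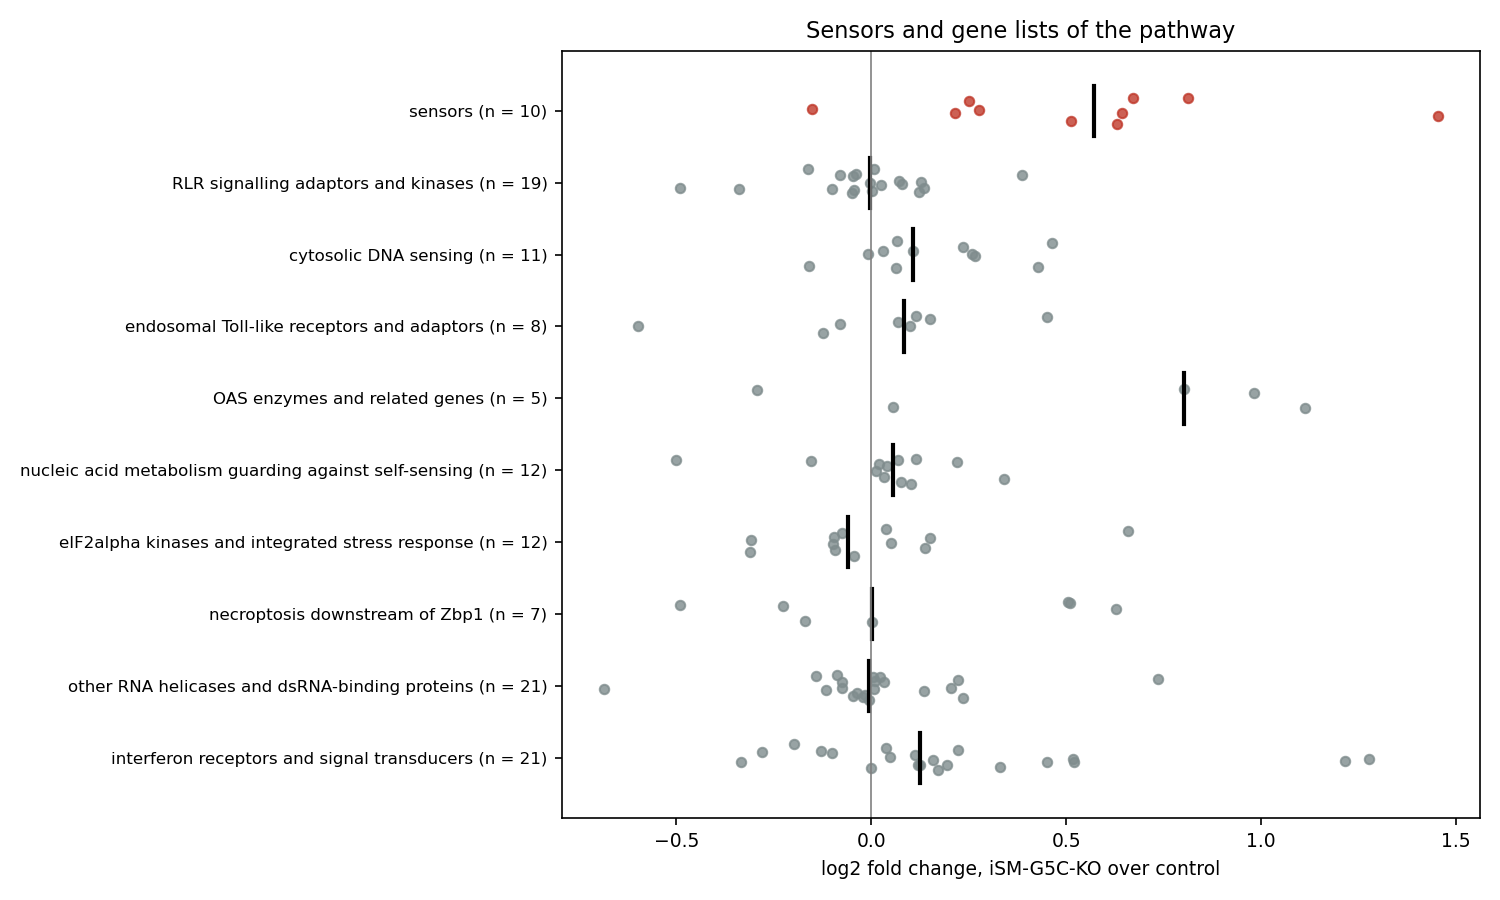
Log2 fold change, iSM-G5C-KO over control, of the sensors (top, red) and of tested genes in 9 lists of the surrounding pathways (grey points), with the median of each as a black bar. The medians of the sensors at 0.57 and of OAS enzymes and related genes at 0.80 lie to the right of the other lists, at -0.061 to 0.13. Genes not reported here are left out, which raised the OAS median.

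Among 8332 other genes with a mean of at least 50, those whose values followed Ddx58 most closely over the 6 libraries included Papd4, Pdcd6, Nsun2, Tns3, Dync1i2, Rsad2 and Parp14, with Pearson correlations of 0.99 to 0.97. With 2 groups in these libraries, such a correlation mostly ranks genes by how well they separate the groups, and 43 genes were above 0.9. The antiviral enzyme gene Rsad2 and Parp14 had log2 fold changes of 0.89 and 0.60, near or above that of Ddx58. Rsad2 was at 59, 88 and 70 in KO libraries and 45, 27 and 45 in controls. The first 5 genes differed by 0.11 to 0.30. The lowest correlations, -0.99 to -0.96, were those of Adamtsl3, Prss23, Gtf2ird2 and Gosr1. Adjusted p from limma was 0.999 for each gene named here.

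Markers of other cells were read beside the sensors, since leukocytes and endothelial cells also express them and, in bulk libraries, more cells of a type and more RNA per cell cannot be told apart. The summed value of 16 leukocyte and macrophage markers was 503, 160 and 752 in KO libraries 1, 2 and 3 and 689, 165 and 623 in controls 1, 2 and 3. Libraries numbered 2 were thus the lowest in both groups. Of the 12 members tested, 8 had a log2 fold change above 0 in the fit, which need not mean a higher KO mean. Ptprc, which encodes CD45, was at 8 in KO library 2 and 1 in control library 2. The 9 lymphocyte markers summed to 14, 6 and 37 in KO libraries and 30, 3 and 21 in controls, and none had a mean high enough to be tested. Of 6 markers of plasmacytoid dendritic cells, Siglech was at 2, 0 and 3 in KO libraries and 5, 2 and 7 in controls, and Bst2, which interferon induces in many cells, at 29, 94 and 80 in KO libraries and 22, 32 and 34 in controls. Both tested members, Bst2 and Tcf4, were higher by the KO mean, at 0.60 for the median log2 fold change. All 6 had a row, and their sums were 620, 692 and 783 in KO libraries and 548, 559 and 699 in controls, of which Tcf4 made up 586, 592 and 681 in KO libraries and 504, 522 and 647 in controls. The 12 endothelial markers summed to 476, 1087 and 1136 in KO libraries and 421, 613 and 827 in controls, with all 12 higher in the mean of KO libraries. The 8 pericyte markers summed to 10875, 13784 and 18088 in KO libraries and 10197, 12100 and 15680 in controls, the 12 muscle fibre markers to 2256, 4755 and 9230 in KO libraries and 1608, 2650 and 3900 in controls, and the 10 fibroblast markers to 2822, 4903 and 4348 in KO libraries and 3410, 4580 and 5014 in controls. All 8 pericyte, 11 of 12 muscle fibre and 2 of 10 fibroblast markers had a log2 fold change above 0 in the fit. The part of RNA from any of these cell types, leukocytes included, and of proliferation in the sensor values was not tested, and no listed marker was without a row in the table.

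**Figure D5:**
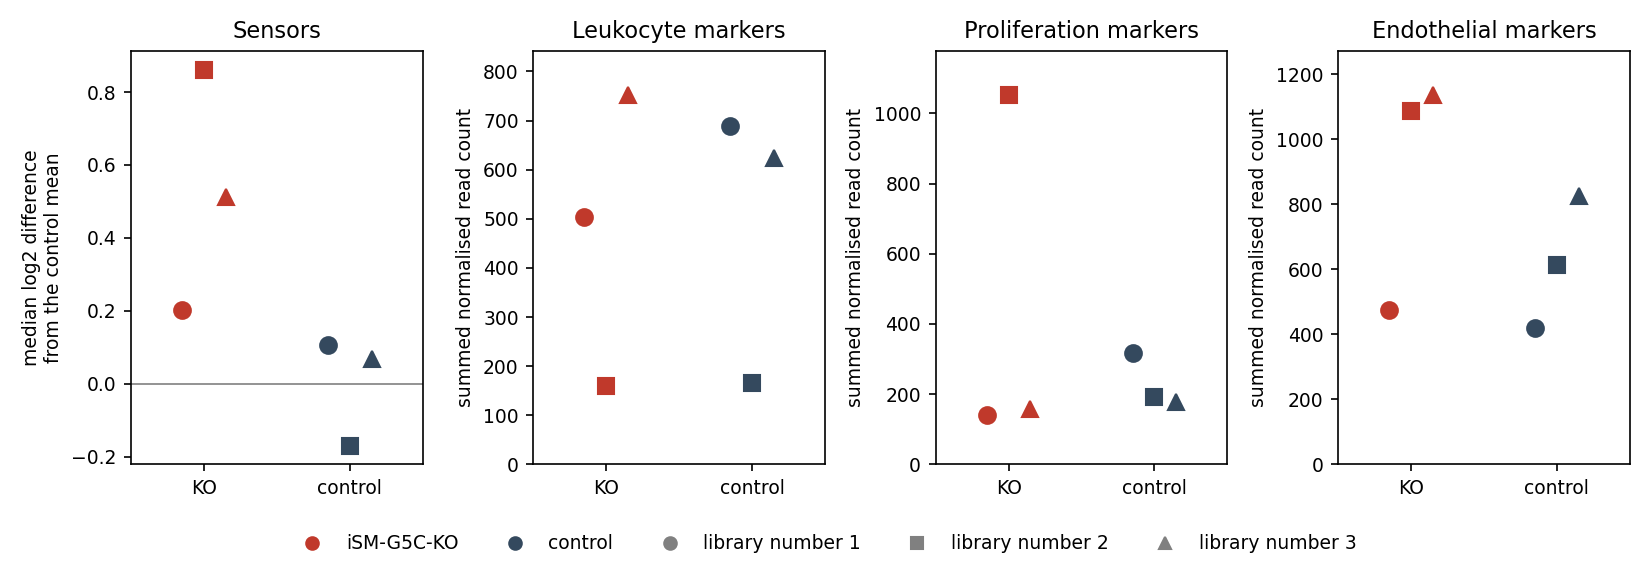
Median log2 difference of the 10 sensors from the control mean in each library (left) and summed normalised read counts of leukocyte, proliferation and endothelial markers, with iSM-G5C-KO libraries left of controls. The sensors are highest in KO library 2, at 0.86, where proliferation markers sum to 1052, and leukocyte sums run from 160 to 752 in KO libraries and 165 to 689 in controls.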

How the data were processed

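RNA of sorted smooth muscle cells was sequenced from 5 ng of total RNA per library with a stranded low-input kit, per the labels' protocols. The deposited values are a score: rounded counts of reads per gene, which the authors had scaled with a single factor for each library, as the table's name, DESeq2 1.18.1 in the submitters' processing notes and the spacing of low values point to. These notes also name Trimmomatic 0.39, STAR 2.6.1d, featureCounts 1.6.5 and the builds mm10 and GRCm38.p5. The worth of 1 read, and so the reads per library, was estimated from that spacing. Whole reads could not be recovered where 1 read is worth less than 1, so no count model was used. Genes with few reads, such as Zbp1, are measured least precisely.

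From these values, limma 3.58.1 in R 4.3.3 was run on log2(value + 1), 2-sided, with an intensity trend and no block, over the 12735 genes with a mean of at least 10, and p-values were adjusted by Benjamini-Hochberg (threshold 0.05). The fit was tested on simulated data. Fold changes on this scale understate those of low genes. All 10 sensors were tested. The members and gene lists were chosen with earlier results of these data known. Named are all sensors, the targeted gene, and in each list the members past the threshold or else up to 4 with the smallest p. Also named are the 4 genes with the lowest correlation with Ddx58. Of the 8 genes with the highest, not all are reported here. Deviations from the group means correlated over genes at 0.59, 0.31 and 0.44 between libraries with the same number. Between libraries with unlike numbers these correlations ran from -0.50 to 0.16. No label says what a number marks, so the main fit has no block. The blocked fits and the differences by number pair the libraries on the evidence of the data alone. Genes of the lists that are not reported here were left out of the list counts, medians and names, which raised the OAS median. The alternatives were the block, other pseudocounts, filters, scalings and variance models, and each library or numbered pair left out. Promoters come from RefSeq. Reads per kb use exon lengths of GENCODE M21 (GRCm38), matched by Ensembl ID for all 10 sensors.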

Additional observations from a re-analysis of the deposited data

How the results depend on the processing

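The log2 fold change of each sensor kept its direction in every alternative in which it was tested (17 or 18 each), the number of sensors called stayed at 0 in all of them, and the sensor median ran from 0.28, when genes needed a mean of at least 50 and 7 sensors were tested, to 0.75 with sample quality weights. Among the larger moves were those with sample quality weights (Zbp1 2.26, Trim25 0.62, Samhd1 0.44), in the blocked fits without the pair numbered 1 (Dhx58 1.22) and without the pair numbered 3 (Tlr3 0.94), and in the blocked fit without the pair numbered 2 (Zbp1 0.57, Eif2ak2 0.21, Trim25 0.045, Samhd1 0.026), and Adar was at 0.086 in the blocked fit without the pair numbered 3. The smallest adjusted p of any sensor with limma was 0.0658, for Ddx58 in the blocked fit without the pair numbered 1, over a range up to 1. The count of genes called over the whole table was 0 in the main fit and 2 with sample quality weights, both without a block. With the replicate block it was 1, and in blocked fits it was 61 without the pair numbered 1 and 1 without the pair numbered 2. It was 2 with sample quality weights, and the cause was not tested. The genes at an unadjusted p under 0.05 in limma were 230 in the main fit, 1305 with the block and 2228 with sample quality weights. They were 125 to 1309 when 1 library was left out, 1309 without KO library 1. Some named genes changed sign: Ifi204 ran from -0.043 to 0.66 with 1 library left out and was at -0.026 in the blocked fit without the pair numbered 2, Cd14 ran from -1.08 to 0.20, Myd88 from -0.23 to 0.017, and Cnpy3 was at -0.0054 with sample quality weights. Leaving out 1 library moved 24 of the 35 genes named from the lists by over 1.5 times, and did not so move Ifi203, Oasl2, Oas2, Oas1b, Asns, Eif2s1, Ddx60, Irf7, Usp18, Stat2 and Socs3. Over the alternatives 7 of 9 list medians changed sign, all but those of OAS enzymes and related genes (0.056 to 1.17) and of interferon receptors and signal transducers (0.050 to 0.25). Oasl2 and Irf7 passed the adjusted threshold in limma in the blocked fit without the pair numbered 1. No scaling moved the median of all genes by over 0.1, and without the filter on low values it was -0.14. Depth limits Zbp1, Tlr3 and Dhx58 most.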
